A study of Homo sapiens with 16 samples.

Results

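FOS, FOSB, FOSL1, FOSL2, JUN, JUNB, JUND, EGR1, EGR2 and EGR3 are 10 transcription factor genes of the immediate early class. They were chosen by name from 3 families, out of 23459 genes in the count table, and the choice was made with earlier results of these data known. The values below are therefore a description. The adjusted p beside a change sets it against the spread between libraries, over all 15967 genes tested, and is not independent evidence for the genes. All 10 were in the table, and 9 passed the filter on low counts, EGR2 being the exception.

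RNA was sequenced from IMR5-75 and Be(2)-C, both human neuroblastoma lines of clonal origin with amplified MYCN. The treatments of each line were DAC (1 µM, 72 h), EPZ-6438, written EPZ from here on (1 µM, 96 h), both drugs with those doses and times (DAC+EPZ), and the solvent DMSO as control. DAC is not spelled out in the labels. It is the common short name of decitabine, a cytidine analogue that lowers DNA methylation by trapping the enzymes that make it. EPZ-6438 blocks EZH2, the enzyme through which Polycomb methylates histone H3. Each of the 8 groups held 2 libraries, and the 16 libraries held 9539557 to 14032155 counts each. No label says that the libraries of a group came from separate cultures, so a p-value reflects the spread among these libraries alone, part or all of which could be technical.

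Immediate early genes are transcribed within minutes of a growth factor, depolarisation or stress signal, without new protein synthesis, and their short-lived mRNAs soon decline. FOS and JUN proteins pair through leucine zippers to form AP-1, which binds DNA, and EGR proteins bind GC-rich sites through zinc fingers. MAP kinases drive this response through serum response factor with its ETS-family partners and through CREB, and the phosphatases of the DUSP family switch the kinases off again. In neuronal cells FOS and EGR1 are widely used as markers of recent stimulation.

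Promoters of 8 of the 10 genes were matched in a RefSeq table of build GRCh38.p14, 10 promoters in all because EGR2 had 3. Shown here are the 250 bases before the transcription start of the 3 genes that moved furthest in IMR5-75 (FOS, EGR1 and FOSB), of JUN, and of JUND for contrast. Capitals mark the CRE core TGACG, read on either strand, and the CArG box, the site of serum response factor.
FOS, chr14:75278578-75278827, plus strand: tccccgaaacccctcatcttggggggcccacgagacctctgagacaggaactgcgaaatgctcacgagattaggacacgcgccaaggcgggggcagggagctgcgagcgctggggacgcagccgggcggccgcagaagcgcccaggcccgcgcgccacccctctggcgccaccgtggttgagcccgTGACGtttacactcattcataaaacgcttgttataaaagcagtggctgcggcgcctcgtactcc
FOSB, chr19:45467746-45467995, plus strand: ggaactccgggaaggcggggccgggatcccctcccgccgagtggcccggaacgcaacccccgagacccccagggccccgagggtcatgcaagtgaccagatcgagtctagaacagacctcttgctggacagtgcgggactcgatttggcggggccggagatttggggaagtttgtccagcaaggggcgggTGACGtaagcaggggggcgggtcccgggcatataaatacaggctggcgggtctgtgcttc
JUN, chr1:58784048-58784297, minus strand: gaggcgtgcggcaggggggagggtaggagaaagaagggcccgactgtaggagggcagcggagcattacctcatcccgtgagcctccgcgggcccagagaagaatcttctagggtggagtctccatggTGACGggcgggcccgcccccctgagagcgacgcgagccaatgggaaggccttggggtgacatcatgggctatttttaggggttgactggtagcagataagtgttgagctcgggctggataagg
JUND, chr19:18281623-18281872, minus strand: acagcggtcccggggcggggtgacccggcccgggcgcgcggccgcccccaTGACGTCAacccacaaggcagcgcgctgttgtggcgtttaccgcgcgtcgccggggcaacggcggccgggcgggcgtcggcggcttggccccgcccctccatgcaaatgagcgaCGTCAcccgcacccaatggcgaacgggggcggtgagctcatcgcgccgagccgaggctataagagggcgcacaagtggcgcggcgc
EGR1, chr5:138465229-138465478, plus strand: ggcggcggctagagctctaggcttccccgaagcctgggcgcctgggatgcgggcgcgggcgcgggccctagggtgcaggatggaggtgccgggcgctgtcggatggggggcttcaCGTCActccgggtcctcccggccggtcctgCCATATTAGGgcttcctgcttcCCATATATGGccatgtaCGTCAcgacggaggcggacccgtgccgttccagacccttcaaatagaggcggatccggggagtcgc
The CRE core was present in all 8 matched genes, in EGR2 in only 1 of its 3 promoters. It was present in 24.6% of 35116 RefSeq promoters of the same 300-base length, a share of promoters and not of genes. In FOS it ran from base -64 to -60 before the start, in FOSB from -60 to -56, in JUN from -123 to -119 and in JUNB from -137 to -133. JUND, whose RNA was not called changed by any treatment against DMSO, had 3 copies of the core, and its copies at -200 and -197 together made the full CRE TGACGTCA, held by 1.85% of promoters. EGR1 had 2 CArG boxes, at -105 to -96 and -83 to -74, and 1 promoter of EGR2 had another, against 1.29% of all promoters. TATAAA was found in FOS, FOSB and JUNB, against 11.5% of promoters. An exact TGANTCA, an AP-1 site, was found in FOSL2 alone among these genes, against 7.71%. It ran from base 5 to 11 after the start, in the part of the 300-base window past the 250 bases described above. No match to GCGGGGGCG or GCGTGGGCG was found in them, against 5.77% of promoters. A match is a description of letters in this window, searched on both strands, and not a bound site.

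Gene levels are given as CPM, which is the count scaled to library size and not to gene length, so levels are compared between groups and not between genes. In RNA from whole cultures, fewer cells with an mRNA and less of it per cell cannot be told apart. In IMR5-75, 6 of the 9 tested genes rose after DAC (FOS, FOSB, FOSL2, JUN, JUNB and EGR1), where 19.9% of all genes tested were called higher and 13.8% lower. The same 6 genes rose under DAC+EPZ, where 25.7% of all genes were called higher and 20.4% lower. After EPZ alone 2 of the 9 rose, FOS and JUN, where 1.63% of all genes were called higher and 0.344% lower. The median log2 change of the 9 genes in IMR5-75 was 0.91 after DAC, 0.64 after EPZ and 0.89 under DAC+EPZ, beside medians of 0.02, 0.01 and 0.03 over all genes. Calls throughout are those of edgeR's quasi-likelihood test at a Benjamini-Hochberg adjusted p below 0.05.

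There were few calls among the 9 genes in Be(2)-C, and after either drug alone they were near the shares of all genes called. After EPZ 1 of 9 rose, FOSL2, where 5.35% of all genes were called higher and 4.85% lower. After DAC, edgeR called 0 of 9, where 3.73% of all genes were called higher and 2.97% lower. Under DAC+EPZ it again called 0 of 9, where 13.2% were called higher and 10.4% lower. DESeq2 also called 0 in both of these comparisons, and at an unadjusted p under 0.05 edgeR had 1 gene in each, EGR1 after DAC and FOSL2 under DAC+EPZ. The median log2 change of the 9 genes in Be(2)-C was 0.10 after DAC, -0.40 after EPZ and 0.11 under DAC+EPZ, beside 0.02, 0.02 and 0.05 over all genes.

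**Figure D1:**
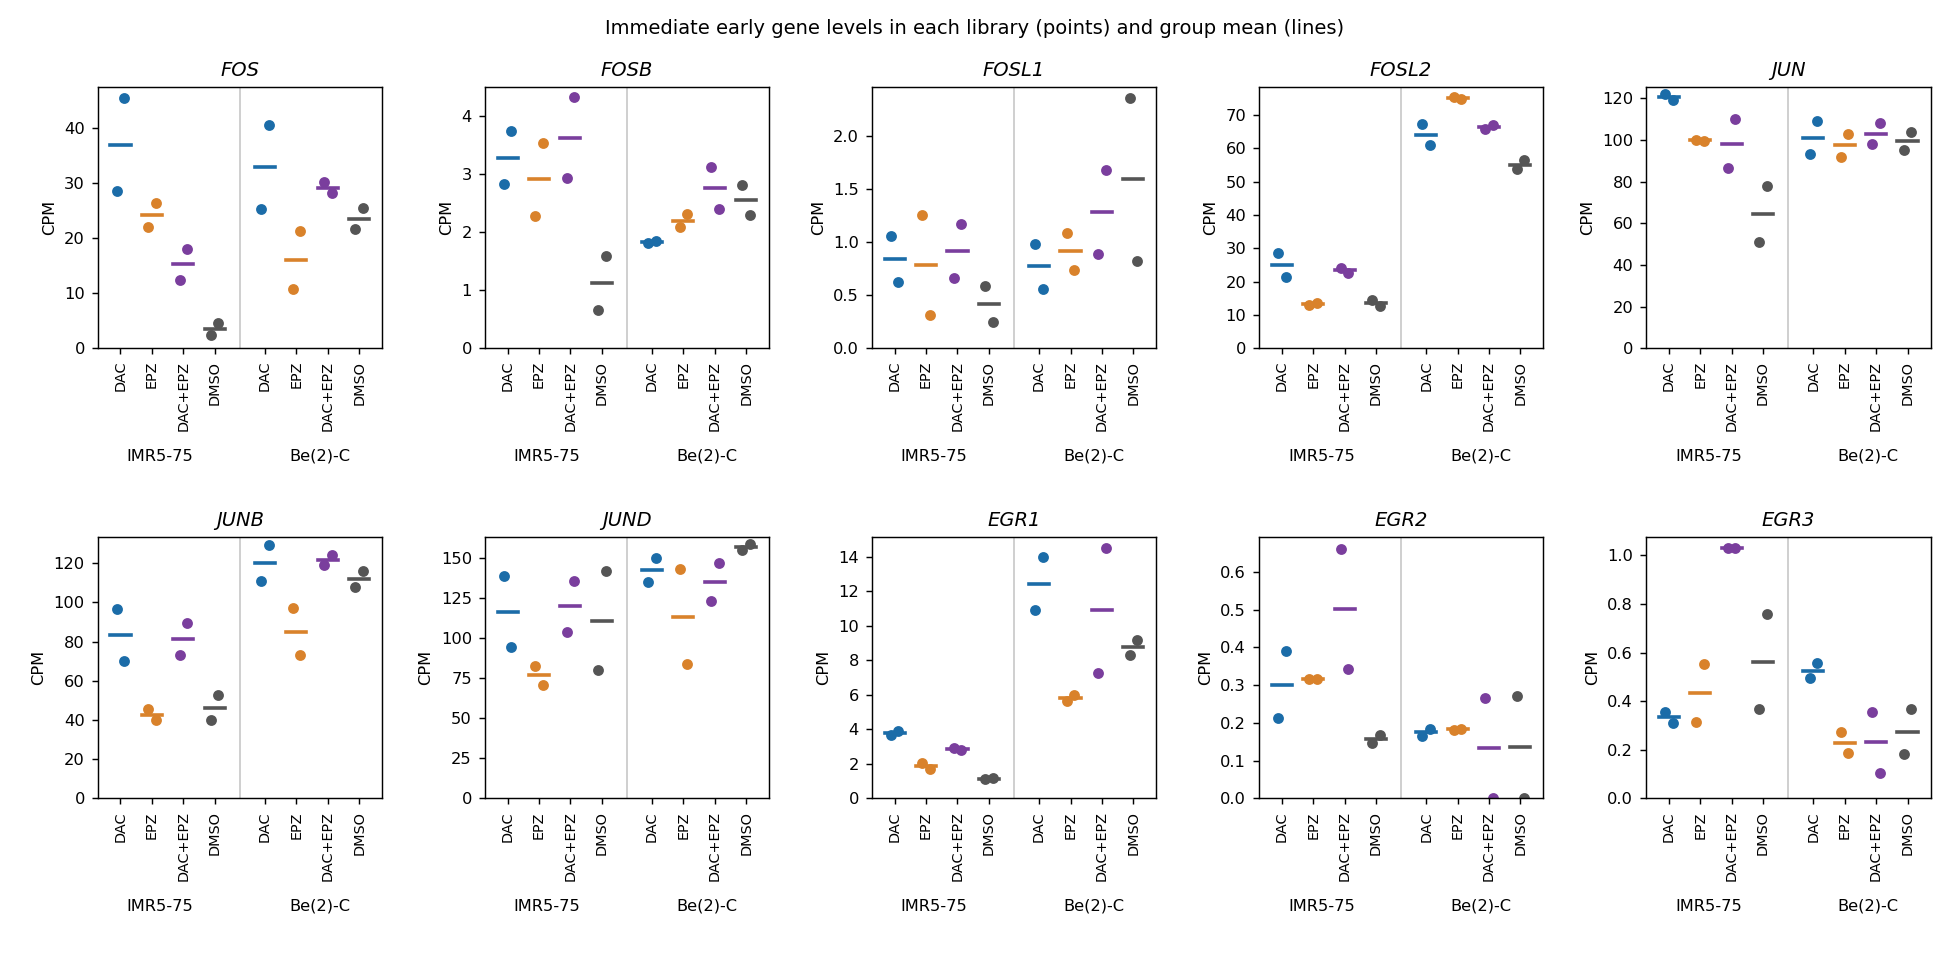
Level of each of the 10 genes (CPM, linear axes from 0) in each library (points) with the group mean (lines), for IMR5-75 at the left and Be(2)-C at the right of each panel. FOS in IMR5-75 ran from 12.5 to 45.4 CPM in the treated libraries and was 2.36 and 4.63 CPM in the DMSO libraries.

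FOS encodes the founding AP-1 subunit that cannot pair with itself and needs a JUN partner. In IMR5-75 it had 28.5 and 45.4 CPM after DAC, 22.0 and 26.4 CPM after EPZ, 12.5 and 18.1 CPM under DAC+EPZ, and 2.36 and 4.63 CPM in DMSO (402, 582, 279, 335, 170, 263, 32 and 55 counts). Every treated IMR5-75 library lay above both DMSO libraries, and the 3 treatments did not overlap each other. FOS rose by 3.42 ± 0.34 (log2 ± SE, adjusted p = 1.14e-07 by edgeR) after DAC, a 10.7-fold change. It rose by 2.81 ± 0.34 after EPZ (7.01-fold, adjusted p = 0.00021) and by 2.15 ± 0.35 under DAC+EPZ (4.44-fold, adjusted p = 4.07e-05). With any 1 library left out these changes ran from 3.01 to 3.95, from 2.40 to 3.35 and from 1.77 to 2.68, and each stayed called.

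FOS in Be(2)-C had 25.3 and 40.6 CPM after DAC, 10.8 and 21.4 CPM after EPZ, 30.2 and 28.2 CPM under DAC+EPZ, and 21.6 and 25.5 CPM in DMSO. DAC overlapped DMSO, EPZ lay below it and DAC+EPZ above it, with log2 changes of 0.48 ± 0.28, -0.55 ± 0.29 and 0.31 ± 0.28 that were not called. The change after EPZ was -1.13 without Be(2)-C EPZ 2. With no filter it was -0.58 and called, its adjusted p of 0.0154 lying below the unadjusted p of 0.0719 with the filter (both by edgeR). Here and below, calls gained with no filter came at nearly the same log2 change. They rest on how the spread was estimated over more genes and are no further support. FOS means over the 8 groups spanned 10.6-fold. From high to low they were 36.9 ± 12 (IMR5-75 DAC), 32.9 ± 10.8 (Be(2)-C DAC), 29.2 ± 1.40 (Be(2)-C DAC+EPZ), 24.2 ± 3.08 (IMR5-75 EPZ), 23.5 ± 2.80 (Be(2)-C DMSO), 16.1 ± 7.48 (Be(2)-C EPZ), 15.3 ± 3.96 (IMR5-75 DAC+EPZ) and 3.49 ± 1.60 CPM (IMR5-75 DMSO; SD, n = 2 each). Neighbours in this order overlapped except at 3 steps, of which the lowest set IMR5-75 DMSO apart from all other groups.

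FOSB, a FOS relative induced by many of the same stimuli, was low. FOSB in IMR5-75 had 2.83 and 3.74 CPM after DAC, 2.29 and 3.54 CPM after EPZ, 2.94 and 4.33 CPM under DAC+EPZ, and 0.663 and 1.60 CPM in DMSO, with 9 to 63 counts per library. All treated libraries lay above both DMSO libraries, and the treatments overlapped each other. FOSB rose by 1.56 ± 0.37 after DAC (2.94-fold, adjusted p = 0.00289 by edgeR) and by 1.71 ± 0.37 under DAC+EPZ (3.27-fold, adjusted p = 0.000647). After EPZ the change of 1.39 ± 0.38 was not called (adjusted p = 0.0636). Without IMR5-75 DMSO 1, the lower of the DMSO libraries, the change after DAC was 1.05 and no longer called (adjusted p = 0.0731), and that under DAC+EPZ was 1.23 (adjusted p = 0.0226). Without IMR5-75 DMSO 2 they were 2.28 and 2.42, both called (adjusted p = 0.00151 and 0.000389). FOSB in Be(2)-C had 1.81 and 1.85 CPM after DAC, 2.09 and 2.31 CPM after EPZ, 3.12 and 2.41 CPM under DAC+EPZ, and 2.81 and 2.30 CPM in DMSO. DAC lay below DMSO and the others overlapped it, and no change was called (log2 changes of -0.48 ± 0.37, -0.21 ± 0.36 and 0.12 ± 0.35).

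FOSL2, which encodes FRA2, had 28.6 and 21.3 CPM after DAC, 13 and 13.5 CPM after EPZ, 24.0 and 22.7 CPM under DAC+EPZ, and 14.5 and 12.7 CPM in DMSO in IMR5-75. The DAC and DAC+EPZ libraries lay above DMSO, and the EPZ libraries lay within it. FOSL2 rose by 0.87 ± 0.15 after DAC (1.83-fold, adjusted p = 8.82e-05 by edgeR) and by 0.77 ± 0.15 under DAC+EPZ (1.71-fold, adjusted p = 0.000181), while the change after EPZ was -0.04 ± 0.15. FOSL2 in Be(2)-C had 67.3 and 60.9 CPM after DAC, 75.4 and 74.9 CPM after EPZ, 65.9 and 67.0 CPM under DAC+EPZ, and 53.7 and 56.4 CPM in DMSO. The 6 treated Be(2)-C libraries lay above both DMSO libraries, and FOSL2 rose by 0.45 ± 0.13 after EPZ (1.37-fold, adjusted p = 0.0297). That call ended without any 1 of the 4 libraries compared (0.40 to 0.48, adjusted p from 0.0889 to 0.243). FOSL2 overlaps the antisense gene FOSL2-AS1 in RefSeq, and the strand setting of the counting is not given, so reads of the 2 genes cannot be told apart.

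FOSL1, which encodes FRA1, had 3 to 26 counts per library. Its IMR5-75 libraries had 1.06 and 0.624 CPM after DAC, 1.26 and 0.315 CPM after EPZ, 0.660 and 1.17 CPM under DAC+EPZ, and 0.590 and 0.252 CPM in DMSO, with DAC and DAC+EPZ above DMSO. Its means in Be(2)-C were 0.772 ± 0.305 after DAC, 0.915 ± 0.247 after EPZ, 1.28 ± 0.557 under DAC+EPZ and 1.59 ± 1.08 CPM in DMSO (SD, n = 2 each), all overlapping. No change against DMSO was called in either line, and the SE of these changes was 0.56 to 0.73 on the log2 scale.

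JUN encodes the AP-1 subunit that can pair with itself or with FOS proteins, and it activates its own gene. In IMR5-75 it had 122 and 119 CPM after DAC, 100 and 99.4 CPM after EPZ, 86.3 and 110 CPM under DAC+EPZ, and 50.8 and 77.7 CPM in DMSO. All 6 treated libraries lay above both DMSO libraries, and DAC lay above the other treatments. JUN rose by 0.91 ± 0.16 after DAC (1.88-fold, adjusted p = 0.000128 by edgeR), by 0.64 ± 0.16 after EPZ (1.56-fold, adjusted p = 0.0364) and by 0.62 ± 0.16 under DAC+EPZ (1.53-fold, adjusted p = 0.00277). The size rested on IMR5-75 DMSO 1, the lower DMSO library. Without it the change was 0.65 after DAC and still called, 0.38 after EPZ (adjusted p = 0.229) and 0.39 under DAC+EPZ (adjusted p = 0.0614). Without IMR5-75 DMSO 2 it was 1.24 after DAC, 0.97 after EPZ and 0.94 under DAC+EPZ, all called. The EPZ call also ended without IMR5-75 EPZ 1 (adjusted p = 0.181) or EPZ 2 (adjusted p = 0.141). JUN in Be(2)-C had 93 and 109 CPM after DAC, 91.7 and 103 CPM after EPZ, 98.0 and 108 CPM under DAC+EPZ, and 95 and 104 CPM in DMSO. These 8 libraries overlapped throughout, with log2 changes of 0.02 ± 0.16, -0.04 ± 0.16 and 0.05 ± 0.16.

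JUNB, a JUN relative that often opposes JUN, was called with DAC and not with EPZ in IMR5-75. JUNB in IMR5-75 had 96.6 and 70.3 CPM after DAC, 45.6 and 40.0 CPM after EPZ, 73.1 and 89.5 CPM under DAC+EPZ, and 40.0 and 52.6 CPM in DMSO. The DAC and DAC+EPZ libraries lay above all EPZ and DMSO libraries. JUNB rose by 0.85 ± 0.17 after DAC (1.81-fold, adjusted p = 0.000452 by edgeR) and by 0.82 ± 0.17 under DAC+EPZ (1.76-fold, adjusted p = 4e-04), while the change after EPZ was -0.11 ± 0.17. JUNB in Be(2)-C had 111 and 129 CPM after DAC, 97.1 and 73.0 CPM after EPZ, 119 and 124 CPM under DAC+EPZ, and 108 and 116 CPM in DMSO. EPZ lay below the other Be(2)-C groups, and the change of -0.40 ± 0.16 was not called (adjusted p = 0.132), but it was called without Be(2)-C EPZ 1 (-0.62, adjusted p = 0.0459) and with no filter (-0.42, adjusted p = 0.0241). JUNB overlaps HOOK2 in RefSeq, so its counts are uncertain to the extent that reads of both were mixed.

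JUND, the JUN relative that most cells express steadily, was not called in any treatment against DMSO with all libraries and the filter on low counts. JUND in IMR5-75 had 139 and 94.4 CPM after DAC, 82.7 and 71.1 CPM after EPZ, 104 and 136 CPM under DAC+EPZ, and 80.1 and 142 CPM in DMSO. JUND in Be(2)-C had 135 and 150 CPM after DAC, 143 and 83.7 CPM after EPZ, 123 and 147 CPM under DAC+EPZ, and 155 and 159 CPM in DMSO. Every IMR5-75 treatment overlapped DMSO, whose 2 libraries lay far apart, with changes of 0.07 ± 0.23, -0.53 ± 0.23 and 0.11 ± 0.23. All 6 treated Be(2)-C libraries lay below both DMSO libraries, with changes of -0.14 ± 0.23, -0.47 ± 0.23 and -0.21 ± 0.23. The change after EPZ was -0.91 and called without Be(2)-C EPZ 1 (adjusted p = 0.0301). With no filter the change after EPZ was called in both lines (-0.54 in IMR5-75 and -0.50 in Be(2)-C, adjusted p = 0.00437 and 0.00408 by edgeR). These calls too came at nearly the same changes and rest on how the spread was estimated.

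EGR1 encodes a zinc-finger factor induced by growth factors and synaptic activity. In IMR5-75 it had 3.68 and 3.90 CPM after DAC, 2.05 and 1.73 CPM after EPZ, 2.94 and 2.82 CPM under DAC+EPZ, and 1.11 and 1.18 CPM in DMSO (52, 50, 26, 22, 40, 41, 15 and 14 counts). The 4 groups did not overlap and stood in the order DAC, DAC+EPZ, EPZ and DMSO. EGR1 rose by 1.72 ± 0.36 after DAC (3.30-fold, adjusted p = 0.000791 by edgeR) and by 1.33 ± 0.37 under DAC+EPZ (2.51-fold, adjusted p = 0.00567), and the change of 0.72 ± 0.40 after EPZ was not called (adjusted p = 0.395). EGR1 in Be(2)-C had 10.9 and 14.0 CPM after DAC, 5.63 and 6.02 CPM after EPZ, 7.30 and 14.5 CPM under DAC+EPZ, and 8.34 and 9.18 CPM in DMSO. DAC lay above DMSO and EPZ below it, with changes of 0.51 ± 0.23 (adjusted p = 0.212) and -0.59 ± 0.26 (adjusted p = 0.16) that were not called.

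EGR3, an EGR1 relative, had 1 to 15 counts per library. In IMR5-75 it had 0.354 and 0.312 CPM after DAC, 0.315 and 0.551 CPM after EPZ, 1.03 and 1.03 CPM under DAC+EPZ, and 0.369 and 0.757 CPM in DMSO. EGR3 in Be(2)-C had 0.494 and 0.556 CPM after DAC, 0.272 and 0.185 CPM after EPZ, 0.356 and 0.105 CPM under DAC+EPZ, and 0.181 and 0.367 CPM in DMSO. IMR5-75 DAC+EPZ lay above all other groups, and its change against DMSO of 0.89 ± 0.50 was not called (adjusted p = 0.158). EGR3 passed the filter on low counts through these libraries, with 14 and 15 counts. EGR2, a regulator of myelination in Schwann cells, was at the edge of detection and was not tested. It had 3 and 5 counts after DAC, 4 and 4 after EPZ, 9 and 5 under DAC+EPZ, and 2 and 2 in DMSO in IMR5-75, and 0 to 3 in every Be(2)-C library. A count of 3 corresponds to 0.206 to 0.315 CPM, so most EGR2 values lay near this floor, which covers counting error only.

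**Figure D2:**
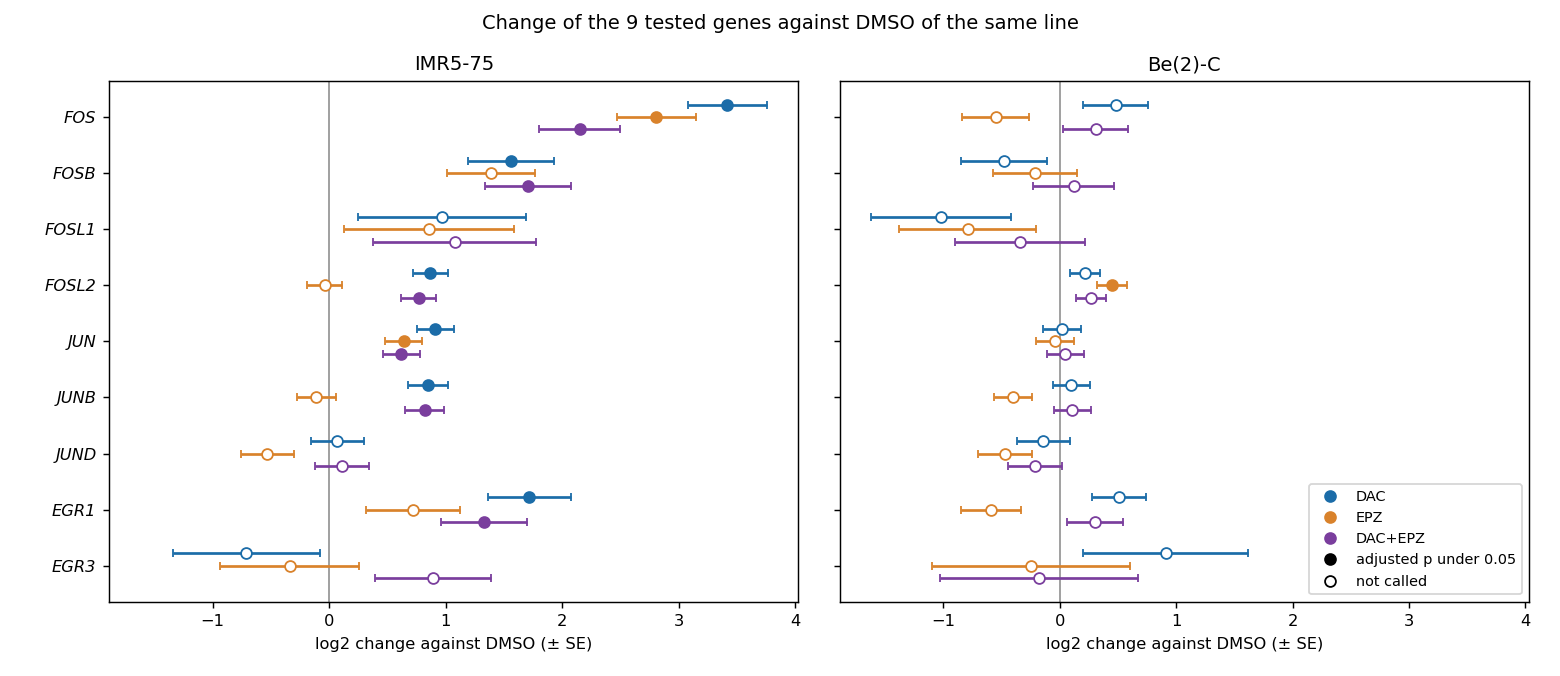
Log2 change against DMSO of the same line (points, with bars of ± 1 SE) for the 9 tested genes after DAC, EPZ and DAC+EPZ; filled points passed an adjusted p of 0.05 and open points did not. In IMR5-75 14 points were filled, all at the right of 0 and with FOS furthest out, and in Be(2)-C 1 was filled, FOSL2 after EPZ.

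The next comparison asked what both drugs together did beyond each alone. In IMR5-75 FOS fell by 1.27 ± 0.28 on the log2 scale with DAC+EPZ against DAC (15.3 ± 3.96 against 36.9 ± 12 CPM, SD, n = 2 each, adjusted p = 0.0207 by edgeR). It was the 1 gene of 9 called there, where 1.94% of all genes tested were called. The call ended without IMR5-75 DAC 2 (-0.86, adjusted p = 0.341), without DAC+EPZ 1 (-0.99, adjusted p = 0.183), without DAC+EPZ 2 (-1.53, adjusted p = 0.0644) and in DESeq2 (adjusted p = 0.0833). Against EPZ, DAC+EPZ raised FOSL2 by 0.82 ± 0.15 (23.3 ± 0.930 against 13.2 ± 0.315 CPM, adjusted p = 0.000166), JUNB by 0.93 ± 0.17 (81.3 ± 11.6 against 42.8 ± 3.90 CPM, adjusted p = 0.000182) and JUND by 0.64 ± 0.23 (120 ± 23.1 against 76.9 ± 8.18 CPM, adjusted p = 0.0355). These were 3 of 9, all higher. Of 15967 genes tested there, 3307 were called higher and 2698 lower, 37.6% in either direction. FOS differed by -0.66 ± 0.28 (15.3 ± 3.96 against 24.2 ± 3.08 CPM) and was not called (adjusted p = 0.071), but it was called with the line fitted alone (-0.68, adjusted p = 0.0463) and with no filter on low counts (-0.61, adjusted p = 0.00189). The JUND call ended without IMR5-75 DAC+EPZ 2 (0.46, adjusted p = 0.234), without EPZ 1 (0.79, adjusted p = 0.0579), without EPZ 2 (0.58, adjusted p = 0.173) and in DESeq2 (adjusted p = 0.106).

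The drugs' changes were also added up and set against the change under both. In IMR5-75 FOS changed by 2.15 under DAC+EPZ, where the single-drug changes summed to 6.23. This log2 interaction of -4.08 ± 0.44 was called (adjusted p = 0.000137 by edgeR) and ran from -4.63 to -3.63 with any 1 library left out, each time called. FOS was 1 of only 4 genes called for the interaction in IMR5-75, 0.0251% of those tested, and the others were NEFM (1.29 ± 0.19), ADCYAP1 (-1.64 ± 0.26) and RGS4 (1.56 ± 0.25). No other member of the 9 was called. FOSB (1.71 against a sum of 2.95), JUN (0.62 against 1.55) and EGR1 (1.33 against 2.45) also lay below their sums, with unadjusted p of 0.0202, 0.00037 and 0.0364 by edgeR. EGR3, with 1 to 15 counts per library, went the other way (0.89 against a sum of -1.05, unadjusted p = 0.0281 and adjusted p = 0.677 by edgeR). It passed the filter on low counts only through the DAC+EPZ libraries, so its p is not independent of the filter. JUN was called for the interaction in DESeq2 (-0.92, adjusted p = 0.0498) and in edgeR without IMR5-75 DMSO 2 (-1.27, adjusted p = 0.0219). FOSL2 (0.77 against 0.83) and JUNB (0.82 against 0.74) lay at their sums within the SE of 0.21 and 0.23.

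In Be(2)-C, DAC+EPZ against EPZ gave 1 gene of 9, EGR1, higher by 0.89 ± 0.25 (10.9 ± 5.07 against 5.82 ± 0.273 CPM, SD, n = 2 each, adjusted p = 0.0497 by edgeR), where 4.21% of all genes were called. It rested on the library Be(2)-C DAC+EPZ 2, without which the change was 0.33 (adjusted p = 0.672). The call also ended without Be(2)-C EPZ 1 (adjusted p = 0.155) or EPZ 2 (adjusted p = 0.15) and in DESeq2 (adjusted p = 0.0718), and it ended with the line fitted alone (adjusted p = 0.0739). FOS differed by 0.86 ± 0.29 (29.2 ± 1.40 against 16.1 ± 7.48 CPM) and was not called (unadjusted p = 0.00693, adjusted p = 0.106 by edgeR). Without Be(2)-C EPZ 2 it differed by 1.43. With no filter FOS was called at nearly the same change (0.87, adjusted p = 5.48e-05 by edgeR), so that call rests on how the spread was estimated. JUNB differed by 0.51 ± 0.16 and was not called (adjusted p = 0.0858), but it was called without Be(2)-C EPZ 1 (0.73, adjusted p = 0.0344), with the line fitted alone (0.50, adjusted p = 0.0417) and with no filter (0.51, adjusted p = 0.00591). DAC+EPZ against DAC gave 0 of 9 in edgeR and DESeq2, where 5.44% of all genes were called in edgeR, and 0 genes had an unadjusted p under 0.05. The interaction gave 0 of 9 in edgeR and DESeq2, where 0.257% of all genes were called in edgeR, and 1 gene, FOSL2, had an unadjusted p under 0.05.

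**Figure D3:**
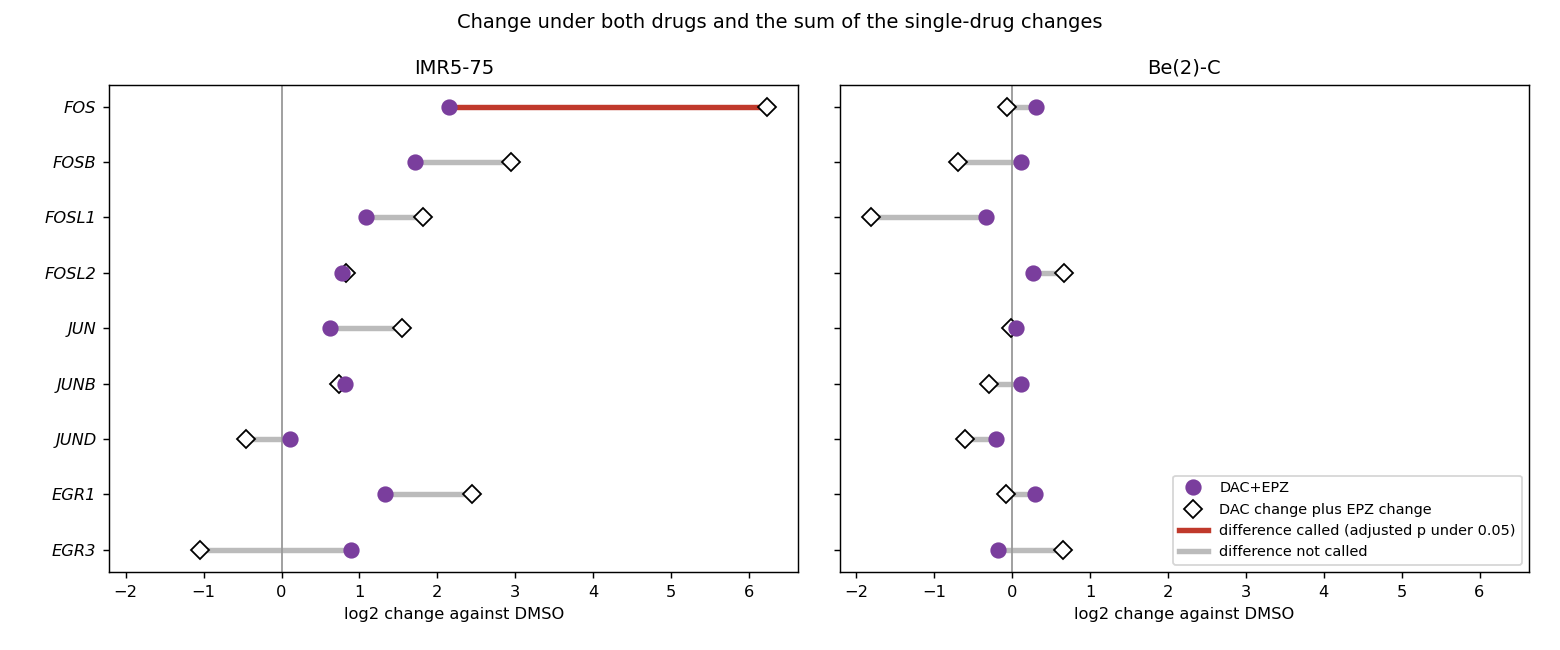
Log2 change against DMSO under DAC+EPZ (circles) and the sum of the DAC and EPZ changes (diamonds) for the 9 tested genes, with the difference drawn as a bar. FOS in IMR5-75, at 2.15 against a sum of 6.23, was the one difference called.

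The same genes stood at different levels in the solvent-treated lines. In DMSO, 7 of the 9 were lower in IMR5-75 than in Be(2)-C and 0 were higher. Of all 15967 genes tested, 4985 were lower in IMR5-75 and 5105 higher, 63.2% in either direction. FOS had 3.49 ± 1.60 CPM in IMR5-75 and 23.5 ± 2.80 CPM in Be(2)-C (log2 difference -2.77 ± 0.35, adjusted p = 4.36e-07 by edgeR). EGR1 had 1.14 ± 0.0508 CPM in IMR5-75 and 8.76 ± 0.597 CPM in Be(2)-C (-2.93 ± 0.32, adjusted p = 7.26e-08). FOSL2 had 13.6 ± 1.29 CPM in IMR5-75 and 55.0 ± 1.93 CPM in Be(2)-C (-2.01 ± 0.14, adjusted p = 6.22e-11), and JUNB 46.3 ± 8.92 CPM in IMR5-75 and 112 ± 5.16 CPM in Be(2)-C (-1.28 ± 0.17, adjusted p = 7.87e-07; SD, n = 2 each throughout). The log2 difference was -0.63 ± 0.16 for JUN (-0.39 without IMR5-75 DMSO 1, -0.97 without DMSO 2, called both times), -1.20 ± 0.40 for FOSB and -1.86 ± 0.66 for FOSL1. The FOSB call ended without IMR5-75 DMSO 1 (-0.70, adjusted p = 0.178) or Be(2)-C DMSO 1 (-1.05, adjusted p = 0.0825), and the difference was -1.93 without IMR5-75 DMSO 2. The FOSL1 call ended without Be(2)-C DMSO 1 (-0.93, adjusted p = 0.374) or IMR5-75 DMSO 2 (-1.42, adjusted p = 0.116). FOS after DAC had 36.9 ± 12 CPM in IMR5-75 and 32.9 ± 10.8 CPM in Be(2)-C, which overlapped, whereas EGR1, FOSL2 and JUNB stayed lower in every IMR5-75 group than in every Be(2)-C group, except that JUNB in IMR5-75 DAC and DAC+EPZ overlapped JUNB in Be(2)-C EPZ.

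Whether a treatment's change differed between the lines was tested directly. After DAC it differed for 4 of the 9 genes, where 6.19% of all genes differed: FOS by 2.94 ± 0.44 (adjusted p = 0.000106 by edgeR), FOSB by 2.04 ± 0.53 (adjusted p = 0.0213), JUN by 0.89 ± 0.22 (adjusted p = 0.0153) and FOSL2 by 0.65 ± 0.19 (adjusted p = 0.0495), each the change in IMR5-75 minus that in Be(2)-C. JUNB (0.76 ± 0.23, adjusted p = 0.0566) and EGR1 (1.22 ± 0.43, adjusted p = 0.109) were not called after DAC by edgeR. With no filter both were called (adjusted p = 0.0021 and 0.0367), and JUNB was also called in DESeq2 (0.76, adjusted p = 0.0326). After EPZ the treatment's change differed for FOS, by 3.36 ± 0.45 (adjusted p = 0.000746), where 1.19% of all genes differed. Under DAC+EPZ it differed for FOS, by 1.84 ± 0.45 (adjusted p = 0.00992), where 11.1% of all genes differed. The FOS difference stayed called without any 1 library after DAC (2.54 to 3.48) and after EPZ (2.95 to 3.94), and under DAC+EPZ it ended without IMR5-75 DMSO 1 (1.49, adjusted p = 0.0701). The FOSB call after DAC ended without IMR5-75 DMSO 1 (1.54, adjusted p = 0.127), IMR5-75 DAC 2, Be(2)-C DMSO 1 or either Be(2)-C DAC library. The JUN call ended without IMR5-75 DMSO 1 (0.64, adjusted p = 0.0815), Be(2)-C DMSO 2 or Be(2)-C DAC 1, and the FOSL2 call without any 1 library except IMR5-75 DAC 2 (adjusted p from 0.0519 to 0.267).

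The other genes of the pathway were read from lists written from general knowledge, with earlier results of these data known. Of 20 tested other immediate early genes, 13 rose in IMR5-75 after DAC and 12 under DAC+EPZ, against the 19.9% and 25.7% of all genes given above, with median log2 changes of 0.94 and 0.77. After EPZ 1 rose, where 1.63% of all genes did, with a median of -0.10. Of the list, 2 rose in Be(2)-C after DAC, 2 after EPZ and 4 under DAC+EPZ, where 3.73%, 5.35% and 13.2% of all genes rose. BTG2, an antiproliferative gene, rose by 1.88 ± 0.11 after DAC and 1.91 ± 0.11 under DAC+EPZ in IMR5-75 (adjusted p = 5.7e-11 and 3.33e-11 by edgeR). It also rose by 1.11 ± 0.12 under DAC+EPZ in Be(2)-C (adjusted p = 5.89e-07). ARC, a neuronal activity gene that shapes synapses, rose by 2.36 ± 0.25 and 2.39 ± 0.25 in IMR5-75 after DAC and under DAC+EPZ (adjusted p = 2.48e-07 and 1.07e-07). Without 1 library, 8 to 11 of the list rose after DAC in IMR5-75, fewest without DMSO 2, and 9 to 13 under DAC+EPZ. The count after EPZ in IMR5-75 was 0 without any 1 of the 4 libraries. In Be(2)-C it was likewise 0 after DAC, 1 after EPZ without DMSO 1, DMSO 2 or EPZ 1, and under DAC+EPZ 1 without either DMSO library and 2 without either treated one.

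MAPK feedback genes encode the phosphatases, Sprouty proteins and ETS factors that MAP kinase signalling itself induces. In IMR5-75 10 of 13 rose after DAC, 4 after EPZ and 9 under DAC+EPZ, where 19.9%, 1.63% and 25.7% of all genes rose, with median log2 changes of 1.16, 0.35 and 1.23. In Be(2)-C 1 rose after DAC, 1 after EPZ and 4 under DAC+EPZ, where 3.73%, 5.35% and 13.2% of all genes rose, with medians of 0.15, 0.17 and 0.20. DUSP6, the ERK phosphatase, rose by 2.83 ± 0.21 after DAC in IMR5-75 (663 counts against 88 in DMSO, adjusted p = 1.27e-09 by edgeR), and in Be(2)-C by 1.01 ± 0.23 after EPZ (adjusted p = 0.00637) and 1.42 ± 0.22 under DAC+EPZ (adjusted p = 7.58e-05). DUSP4, another MAP kinase phosphatase, rose by 1.85 ± 0.13 after DAC, 0.74 ± 0.14 after EPZ and 2.15 ± 0.13 under DAC+EPZ in IMR5-75 (adjusted p = 1.16e-09, 0.00722 and 7.35e-11). ETV5, an ETS factor, rose by 2.07 ± 0.14 under DAC+EPZ in IMR5-75 (adjusted p = 2.94e-10). The change after DAC was larger in IMR5-75 than in Be(2)-C for 8 of the 13 genes (6 to 8 without 1 library), where 6.19% of all genes differed in either direction. Without 1 library the IMR5-75 counts were 9 or 10 after DAC and 9 or 10 under DAC+EPZ, but 0 after EPZ without DMSO 2, EPZ 1 or EPZ 2, and 2 without DMSO 1. DUSP4 after EPZ in IMR5-75 was among the calls lost (adjusted p up to 0.177). In Be(2)-C the count under DAC+EPZ was 2 without either DMSO library, and DUSP6 after EPZ was lost without DMSO 1 (adjusted p = 0.137).

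Genes upstream of the response were few among the calls. Of 17 kinases and SRF pathway genes, 1 rose and 1 fell in IMR5-75 after DAC, where 19.9% and 13.8% of all genes did, and 1 rose and 3 fell under DAC+EPZ, where 25.7% and 20.4% did. Of the same genes in Be(2)-C, 1 fell after EPZ, where 4.85% of all genes did, and 2 rose and 1 fell under DAC+EPZ, where 13.2% and 10.4% did. MAPK10, the neuronal JNK3 kinase that phosphorylates JUN, rose by 0.81 ± 0.14 after DAC and 1.21 ± 0.14 under DAC+EPZ in IMR5-75, and by 1.04 ± 0.18 under DAC+EPZ in Be(2)-C (adjusted p = 0.000149, 5.91e-07 and 0.000246 by edgeR). MAP2K1, the ERK-activating kinase MEK1, fell by 0.41 ± 0.13 after DAC and by 0.51 ± 0.13 under DAC+EPZ in IMR5-75 (adjusted p = 0.0172 and 0.00236), and the first call ended without DMSO 1, DMSO 2 or DAC 1, the second without DAC+EPZ 1. The count that fell under DAC+EPZ was 1 without DMSO 1 or DAC+EPZ 2. The 17 genes had median changes between -0.07 and 0.05 in the 6 comparisons with DMSO.

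Of 11 tested AP-1 partners and EGR corepressors, 3 rose in IMR5-75 after DAC and 4 under DAC+EPZ, counts near the shares of all genes that rose (19.9% and 25.7%). NAB2, which binds EGR1 and represses its activity and is itself an EGR1 target, rose by 0.65 ± 0.13 after DAC in IMR5-75 (adjusted p = 7e-04 by edgeR). Of 12 tested genes known as AP-1 or EGR targets in other cells, 5 rose and 1 fell in IMR5-75 after DAC, where 19.9% and 13.8% of all genes did. Under DAC+EPZ 6 rose and 2 fell, where 25.7% and 20.4% of all genes did. TIMP1, a metalloproteinase inhibitor, rose by 4.65 ± 0.47 after DAC (220 counts against 8 in DMSO, adjusted p = 1.51e-07), and VGF, a neuropeptide precursor, by 2.59 ± 0.32 (adjusted p = 2.29e-06). In Be(2)-C VEGFA, an angiogenic growth factor, rose by 0.55 ± 0.11 after EPZ (adjusted p = 0.00313, and 0.126 without DMSO 1), while in IMR5-75 it fell by 0.69 ± 0.13 after EPZ (adjusted p = 0.00642, and up to 0.15 without DMSO 2, EPZ 1 or EPZ 2). LGALS1, galectin-1, fell by 0.87 ± 0.13 after EPZ in Be(2)-C (adjusted p = 0.000148).

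**Figure D4:**
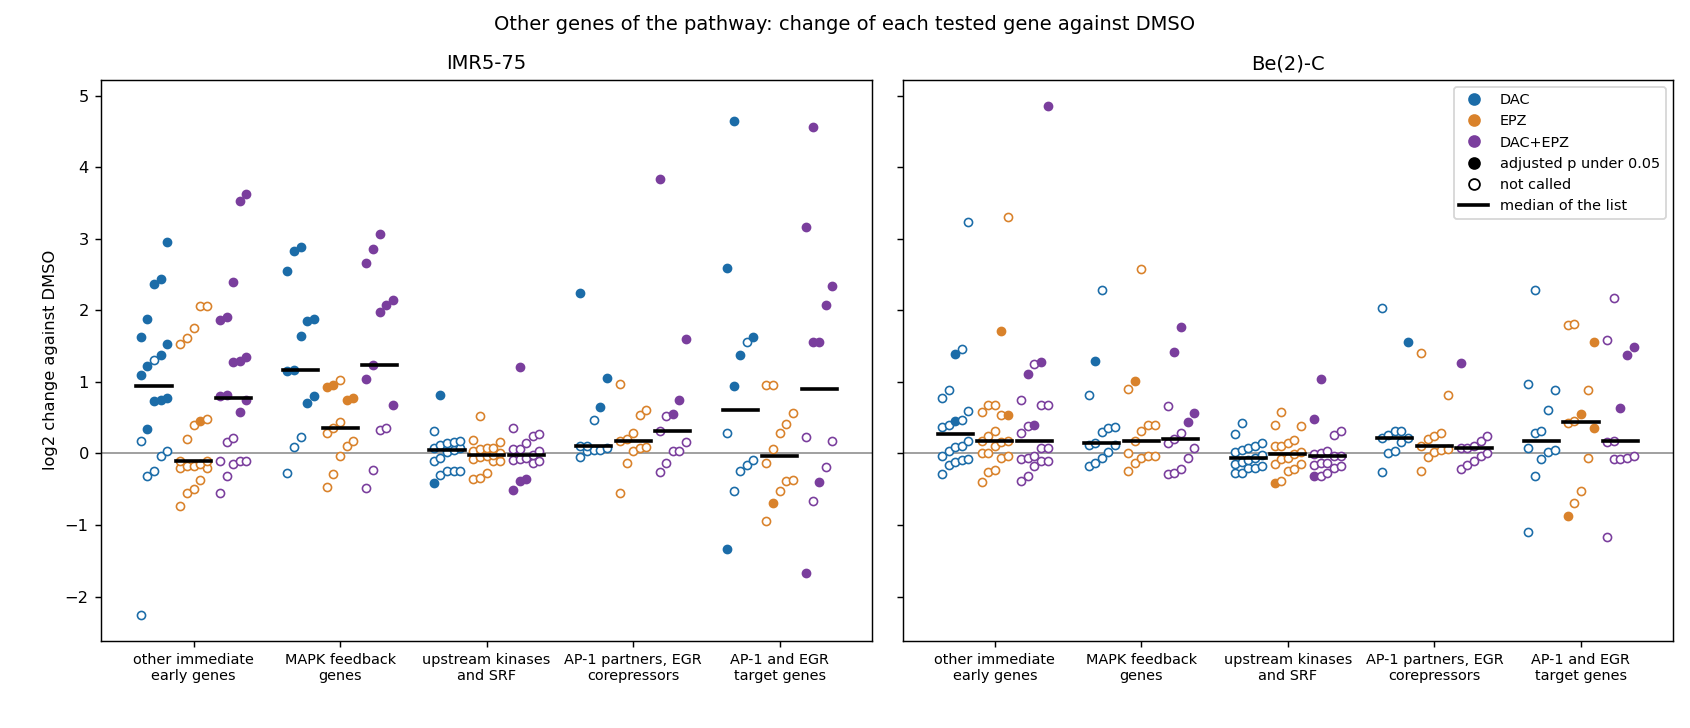
Log2 change against DMSO of each tested gene of 5 pathway lists (points; filled where the adjusted p was under 0.05) with the list median (bars), after DAC, EPZ and DAC+EPZ in IMR5-75 and Be(2)-C. The MAPK feedback genes in IMR5-75 had medians of 1.16, 0.35 and 1.23, and the upstream kinases stayed near 0; points far from 0 in Be(2)-C include genes with very few counts in DMSO.

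Likeness to FOS, JUN and EGR1 was measured over the 16 libraries as Pearson's r of log2 CPM after the mean of each line was subtracted, among 12637 genes, and is a description. Closest to FOS were LOC344595 (r = 0.875), LRRC57 (0.847), GTDC1 (0.822) and DUSP1 (0.82). Closest to JUN were DUSP1 (0.863), LOC344595 (0.846), TMEM53 (0.797) and PPP1R3D (0.792). Closest to EGR1 were PLEKHO2 (0.911), LRRC57 (0.899), PPP1R3E (0.895) and HIST1H1T (0.89). DUSP1, the MAP kinase phosphatase that is itself an immediate early gene, had 42.2 ± 1.11 CPM after DAC, 33.0 ± 0.677 after EPZ, 32.9 ± 7.36 under DAC+EPZ and 25.9 ± 5.86 in DMSO in IMR5-75 (SD, n = 2 each). These r rest on the same libraries, depths and treatments. DUSP1 and JUN had r = 0.958 over the 8 IMR5-75 libraries and 0.318 over the 8 of Be(2)-C. JUN had r = 0.865 with TMEM53 and 0.855 with PPP1R3D in IMR5-75, and -0.099 and 0.156 in Be(2)-C.

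Markers of the lines and of other cell types were read in the same libraries. The 11 noradrenergic neuroblastoma markers summed to 2310 to 3540 CPM in IMR5-75 and 5030 to 7620 CPM in Be(2)-C libraries, with a count in every library for 10 and 11 of them. Of these 11, 2 rose and 2 fell in IMR5-75 after DAC, where 19.9% and 13.8% of all genes did. DBH was among those that rose (3.14 ± 0.29, adjusted p = 3.99e-08 by edgeR). TH was at 0 in at least 1 IMR5-75 library and at most at 2.60 CPM there. The 10 mesenchymal-type markers summed to 1030 to 1380 CPM in IMR5-75 and 395 to 677 CPM in Be(2)-C. Of the 9 tested, 5 rose after DAC in IMR5-75, where 19.9% of all genes did, and 7 rose and 1 fell under DAC+EPZ, where 25.7% and 20.4% did. Of the 9 in Be(2)-C, 3 rose and 1 fell after DAC, where 3.73% and 2.97% of all genes did, and 4 rose and 1 fell under DAC+EPZ, where 13.2% and 10.4% did. Summed levels ran from 4.04 to 22.7 CPM in IMR5-75 and 6.61 to 13.6 CPM in Be(2)-C for 6 Schwann and glial markers. They ran from 0.442 to 2.94 and 1.18 to 2.32 CPM for 6 haematopoietic markers, and from 1.35 to 3.99 and 0.648 to 2.87 CPM for 4 endothelial markers. In IMR5-75 3 of 4 tested Schwann and glial markers, 1 of 2 haematopoietic and 2 of 3 endothelial markers rose after DAC and under DAC+EPZ by edgeR. Of all genes, 19.9% and 25.7% rose there. Some of these markers were near the floor of 0.206 to 0.315 CPM. The endothelial marker CDH5 had 0.111 CPM in DMSO and 0.999 CPM after DAC, and the haematopoietic marker PTPRC 0.2 and 1.43 CPM. Both passed the filter on low counts only through the IMR5-75 DAC and DAC+EPZ libraries. They were tested because they were high there, so their calls follow in part from the filter. The part of these markers in the changes above was not tested.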

How the data were processed

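Total RNA was depleted of ribosomal RNA, made into strand-specific libraries and sequenced as single 50-base reads, per the labels' protocols. The authors deposited raw read counts per gene. Per the submitters' processing notes, TopHat2 2.0.5, HTSeq 0.5.3p9, DESeq2 and build hg19 were used. Neither the annotation nor the strand setting is given in the sources used here. The 16 libraries fell into 8 groups by their labels. Genes were filtered with edgeR's filterByExpr (minimum count 10), scaled by TMM and tested with edgeR 4.0.16's quasi-likelihood test on 8 group means (8 residual degrees of freedom, limma 3.58.1, R 4.3.3), with Benjamini-Hochberg adjustment over 15967 genes and a threshold of 0.05. CPM used TMM-scaled totals. The model was tested on simulated data.

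The members and all gene lists were chosen with earlier results of these data known. Besides the members, the text names up to 2 called genes per list and comparison, by smallest adjusted p, and the 4 genes most like FOS, JUN and EGR1. Some genes this rule names are not reported here. The closing section gives the alternatives: DESeq2 size factors, no filter, DESeq2 1.42.0, a replicate block, each line alone, and each library left out. A protein comparison was not run. Promoters came from RefSeq GRCh38.p14, not the build of the counts, and only their letters were used.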

Additional observations from a re-analysis of the deposited data

Results flagged for a closer look

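The change of 4 genes after DAC differed between the lines, by a test of the difference itself in edgeR (change in IMR5-75 minus change in Be(2)-C, log2 ± SE, n = 2 libraries a group). It was 2.94 ± 0.44 for FOS (adjusted p = 0.000106), 2.04 ± 0.53 for FOSB (adjusted p = 0.0213), 0.89 ± 0.22 for JUN (adjusted p = 0.0153) and 0.65 ± 0.19 for FOSL2 (adjusted p = 0.0495).

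FOS also differed between the lines after EPZ, by 3.36 ± 0.45 (adjusted p = 0.000746 by edgeR), and under DAC+EPZ, by 1.84 ± 0.45 (adjusted p = 0.00992). The 3 FOS differences share the DMSO libraries of both lines, and FOS in DMSO was 3.49 ± 1.60 CPM in IMR5-75 and 23.5 ± 2.80 CPM in Be(2)-C (SD, n = 2 each).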

How the results depend on the processing

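The genes made 34 called changes over 16 comparisons. Over 341 values under other settings, 294 kept their call, 47 lost it and 0 reversed. With no filter, 16 of 110 changes not called in the main fit became called, at nearly the same log2 changes. Counts of called genes that moved by more than 1.5 times were these, and their causes were not tested. In Be(2)-C, EPZ against DMSO went to 4 with no filter and 0 to 2 with 1 library left out (main value 1). DAC+EPZ against DMSO gave 0 to 1 with 1 library left out (main value 0). DAC+EPZ against EPZ gave 3 with no filter, 0 in DESeq2 and 0 to 1 with 1 library left out (main value 1). In IMR5-75, EPZ against DMSO gave 4 with no filter, 1 with the line fitted alone and 1 to 2 with 1 library left out (main value 2). DAC+EPZ against DAC gave 0 in DESeq2 and 0 to 1 with 1 library left out, and the interaction 2 with no filter and 1 to 2 with 1 library left out (main value 1 each). The difference between lines gave 1 to 4 after DAC with 1 library left out (main value 4). After EPZ it gave 2 with no filter and 1 to 2 with 1 library left out, and under DAC+EPZ 3 with DESeq2 size factors, 4 with no filter, 2 in DESeq2 and 0 to 4 with 1 library left out (main value 1 each). The interaction in IMR5-75 also gave 2 in DESeq2, FOS and JUN (main value 1). A lone library was assumed to vary like the other groups.

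Replicate numbers did not pair the libraries in the same way across groups: deviations of same-numbered libraries correlated from -0.41 to 0.28 in IMR5-75 and from -0.33 to 0.02 in Be(2)-C. In IMR5-75 the r was -0.31 (DMSO with DAC), -0.41 (DAC with DAC+EPZ) and -0.29 (EPZ with DAC+EPZ). It was 0.28 (DMSO with DAC+EPZ), 0.25 (DAC with EPZ) and 0.03 (DMSO with EPZ). Libraries of unlike number may thus share part of their spread, which the main test did not model. With the replicate block, 4 of 34 calls were lost and 4 of 110 were gained. For DAC+EPZ against EPZ it called FOS in IMR5-75 (-0.68, adjusted p = 0.0158) and in Be(2)-C (0.92, adjusted p = 0.018), and ended the EGR1 call in Be(2)-C (adjusted p = 0.0507). The block gave 0 members for EPZ against DMSO in Be(2)-C and 2 for the line difference under DAC+EPZ, and 3 for EPZ against DMSO in IMR5-75. Crossed numbers, chosen after seeing the data, exchanged the replicate numbers of IMR5-75 DAC, IMR5-75 EPZ and Be(2)-C EPZ in the block. All 21 called changes within a line were kept. The crossed block gave 3 for EPZ against DMSO and 2 for DAC+EPZ against EPZ in Be(2)-C, and 4 for EPZ against DMSO and 2 for the interaction in IMR5-75. The protein comparison was not run. FOSL1 had 3 to 26, EGR2 0 to 9 and EGR3 1 to 15 counts per library.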
